A study of Gallus gallus with 4 samples.

Results

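Neurosecretory, synaptic and calretinin genes were examined in chick trunk neural tube cells made to express Hoxb8. The 8 genes are SCG2, PCSK1, PTPRN2, UNC13B, NXPH2, LGI1, NPTXR and CALB2, out of 17108 genes listed in the authors' deposited table. They were chosen by name from the genes that carry a symbol, with their deposited fold changes and adjusted p-values in this same comparison known. Their values are therefore a description, and the number of them that passed is not a finding.

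RNA was sequenced from green fluorescent protein (GFP) positive cells sorted 18 hours after in ovo electroporation of the neural tube at Hamburger-Hamilton stage 11. The Hoxb8 group (2 libraries) received 1 µg/µl Hoxb8-pCIG with 1 µg/µl pCIG, and the control group (2 libraries) received 2 µg/µl pCIG. pCIG is an expression plasmid that makes transfected cells fluorescent, so both groups were electroporated, GFP positive and sorted for live cells. The labels name no embryo pools, days or batches, and the p-values measure only the spread between these libraries, which may be technical. No allele or strain is given. The question was which transcripts respond to added Hoxb8, a homeobox gene, in a study of HoxB genes, Lzts1 and neuronal delamination.

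Neurons secrete through vesicles of distinct kinds. Dense-core vesicles carry peptides and granins, which are cut from larger precursors by prohormone convertases inside the vesicle, whereas small synaptic vesicles carry fast transmitters and must be primed before they fuse. Secreted and membrane-bound synapse organisers join the sending and receiving cells, and EF-hand proteins such as calretinin bind the calcium that triggers release. In the neural tube such genes come on as progenitors leave the cycle and differentiate, and calretinin marks subsets of spinal interneurons.

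The only values used here are those of the authors' deposited table of 1 comparison, Hox over WT, with WT read as the pCIG control, the only other group. It gives each gene 1 mean normalised count over the 4 libraries, a log2 fold change with its standard error, a Wald score, a p-value and an adjusted p-value, and no value per library. Replicate values and their overlap between groups are thus not shown. Libraries held 79237283 normalised counts on average, 12574 genes had an adjusted p, and genes with an adjusted p under 0.05 are termed called. There 1913 genes were called, 15.2% of those tested, of which 1097 (8.72%) were higher and 816 (6.49%) lower in Hoxb8. Among the 1157 tested genes with a symbol 206 were called, 17.8%. Neither HOXB8 nor LZTS1 is listed under its symbol (0 lines each), so the direction was taken from the title of the table, with no check against the electroporated gene itself. The deposited fold changes look moderated toward 0, since none exceeded 0.040 on the log2 scale in either direction at means of at most 1, though no source used here names that step. Means are counts per gene that are not divided by transcript length, so they give precision and not the order of expression between genes.

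All 8 genes passed the authors' filter on low means and were called, 5 higher and 3 lower in Hoxb8, beside the background of 15.2%. The genes that rose were CALB2, NXPH2, PCSK1, UNC13B and SCG2, and those that fell were PTPRN2, LGI1 and NPTXR. The rises spanned 1.67-fold to 3.36-fold, while the falls spanned 1.32-fold to 1.58-fold. In bulk RNA, a change in the share of cells that express a gene and a change in RNA per expressing cell cannot be told apart.

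**Figure D1:**
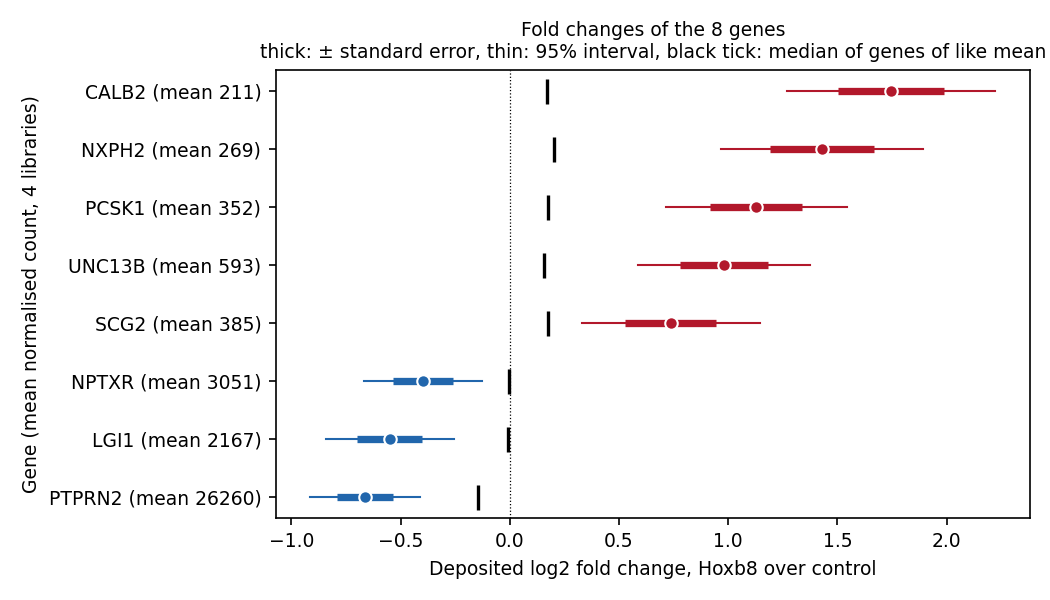
Log2 fold change of the 8 genes per the authors' deposited table (x axis, Hoxb8 over control), with the mean normalised count over the 4 libraries beside each symbol. Points are the deposited values, thick bars the deposited standard error, thin bars the 95% interval made from it, and black ticks the median of the 500 genes nearest in mean. The 5 genes that rose have intervals wholly above 0 and above their tick, and the 3 that fell have intervals wholly below both. The 8 were chosen with their calls known, and a call already fixes that the 95% interval leaves out 0.

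A granin and a convertase of dense-core vesicles, SCG2 and PCSK1, rose as deposited. SCG2 (ENSGALG00000005176) encodes secretogranin II, a granin that is packed into dense-core vesicles and cut into peptides such as secretoneurin. By the authors' deposited table SCG2 had a mean of 385 normalised counts and a log2 fold change of 0.74 ± 0.21 (± standard error throughout), a 1.67-fold rise with a 95% interval of 1.26 to 2.21 (adjusted p of 0.00508). PCSK1 (ENSGALG00000014681) encodes prohormone convertase 1, which cuts precursors after pairs of basic residues. Its log2 fold change was 1.13 ± 0.21 at a mean of 352 per the authors' deposited table, a 2.19-fold rise (95% interval 1.64 to 2.91, adjusted p = 3.72e-06). PCSK1 ranked 37th and SCG2 109th by p among the 1157 tested genes with a symbol.

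A membrane protein of the same vesicles went the other way. PTPRN2 (ENSGALG00000006498) encodes phogrin, a transmembrane protein of dense-core vesicles with a tyrosine phosphatase domain. According to the authors' deposited table PTPRN2 fell by 0.66 on the log2 scale (standard error 0.13), a 1.58-fold fall with a 95% interval of 1.33 to 1.88 (adjusted p of 8.52e-06). Its mean of 26260 normalised counts was above 96.1% of tested genes. PTPRN, the paralogue of PTPRN2 and also a dense-core vesicle protein, stood at 0.21 ± 0.20 per the authors' deposited table (adjusted p of 0.532, mean 797). The difference between these paralogues was not tested.

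UNC13B (ENSGALG00000002165) encodes a Munc13 protein, which primes docked vesicles for fusion by opening syntaxin. By the authors' deposited table it had a mean of 593 and a log2 fold change of 0.98 ± 0.20, a 1.97-fold rise (95% interval 1.502 to 2.59, adjusted p = 2.99e-05). No other UNC13 gene carries a symbol in the table.

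The 3 synapse organisers among the genes did not move together. NXPH2 (ENSGALG00000029083) encodes neurexophilin 2, a secreted glycoprotein that binds alpha-neurexins. It rose by 1.43 ± 0.24 on the log2 scale at a mean of 269 per the authors' deposited table, 2.69-fold with a 95% interval of 1.95 to 3.71 (adjusted p of 9.12e-08). Its paralogue NXPH1 stood at -0.20 ± 0.27 at a mean of only 87.7 per the authors' deposited table (adjusted p of 0.699), with an error too wide to show whether it changed.

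LGI1 (ENSGALG00000029106) encodes a secreted leucine-rich protein that bridges ADAM22 and ADAM23 across the synapse in mammals. At a mean of 2167 per the authors' deposited table it fell by 0.55 on the log2 scale (standard error 0.15), a 1.46-fold fall (95% interval 1.195 to 1.79, adjusted p = 0.00315). NPTXR (ENSGALG00000012183) encodes the neuronal pentraxin receptor, a membrane-bound pentraxin that gathers AMPA-type glutamate receptors in mammals. Its fall was the smallest change of the 8 per the authors' deposited table, 0.40 on the log2 scale with a standard error of 0.14 at a mean of 3051, or 1.32-fold (95% interval 1.09 to 1.59, adjusted p = 0.0315).

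CALB2 (ENSGALG00000026903) encodes calretinin, an EF-hand protein that buffers calcium. By the authors' deposited table it had the highest fold change of the 8, a log2 value of 1.75 ± 0.24 at a mean of 211, which is 3.36-fold with a 95% interval of 2.41 to 4.67 (adjusted p of 7.23e-11). It ranked 11th by p and 7th by fold change among the 1157 tested genes with a symbol. NXPH2 ranked 10th and PCSK1 21st by fold change in the same order.

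Direction and mean count ran together in these genes. The 5 that rose had means of 211 to 593 and the 3 that fell had means of 2167 to 26260, with no overlap. Over the whole table calls of both directions stood at every level, in shares that differed. At means of 100 to 1000, 461 of 2843 tested genes (16.2%) were called higher and 78 lower. From 1000 to 10000, the band that holds LGI1 and NPTXR, 510 of 6121 were called higher and 416 lower (6.80%). At 10000 or more 46 of 2002 were called higher and 313 lower (15.6%). The median log2 fold change was 0.15, -0.019 and -0.12 in these 3 bands of the authors' deposited table. The part of this trend in the values of the 8 genes was measured by setting each against the 500 tested genes nearest in mean.

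Set against genes of like mean, all 8 kept their direction, as they had to. The medians of the genes of like mean, -0.15 to 0.20, were smaller in size than any of the 8 fold changes. CALB2 lay above 99.6% of its 500 nearest genes, NXPH2 above 97.4%, UNC13B above 94.6%, PCSK1 above 94.0% and SCG2 above 86.0%. PTPRN2 lay below 97.6% of its nearest genes, LGI1 below 97.2%, and NPTXR above only 4.80%. With the median of these neighbours taken as 0, the log2 fold changes became 1.58 for CALB2, 1.23 for NXPH2, 0.95 for PCSK1, 0.82 for UNC13B and 0.56 for SCG2. PTPRN2 became -0.52, LGI1 -0.54 and NPTXR -0.39, so LGI1 hardly moved while PTPRN2 lost more of its fall. The deposited standard errors were those usual at each level, from 0.959 times the neighbours' median for PCSK1 to 1.10 times for PTPRN2.

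**Figure D2:**
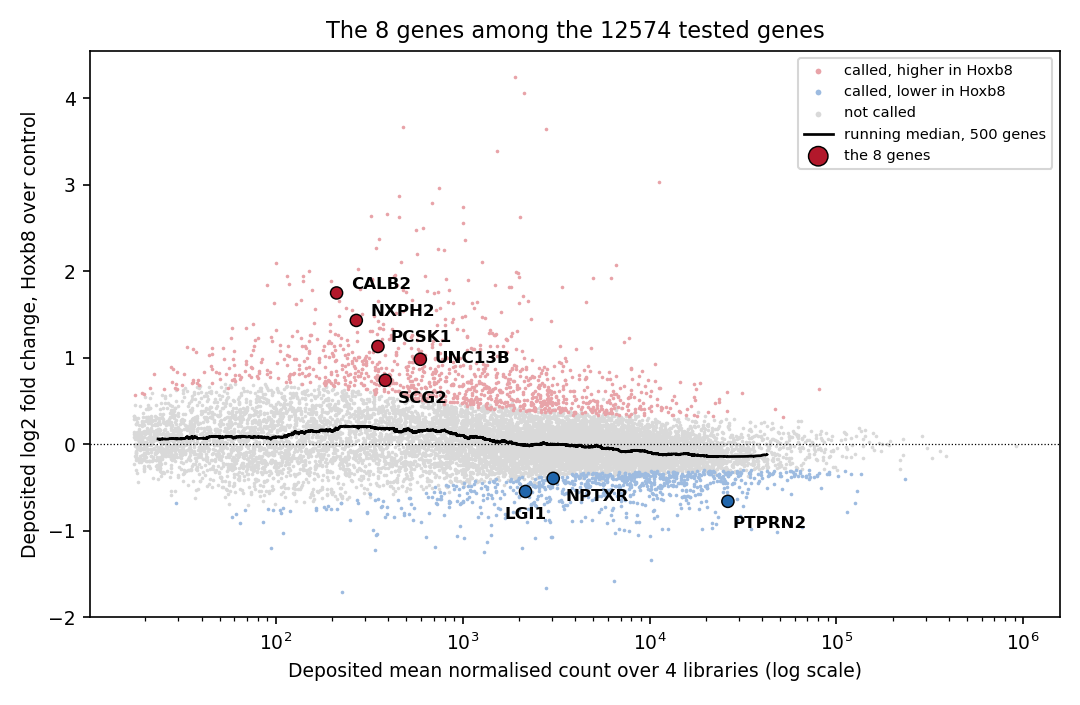
Log2 fold change (y axis, Hoxb8 over control) against mean normalised count over the 4 libraries (x axis, log scale) for the 12574 tested genes per the authors' deposited table. Small points are genes called higher, called lower or not called, the black line is the running median over 500 genes, and the 8 genes are large and named. The 5 that rose lie at means under 1000, where the line is above 0, and the 3 that fell lie to their right.

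The calls differed in how many settings kept them. CALB2 and NXPH2 were called under every setting that tested them (9 each), with highest adjusted p-values of 0.00219 and 0.0202. At an adjusted p under 0.01, 7 of the 8 were called, without NPTXR, beside 9.42% of all tested genes, and at under 0.1 all 8, beside 19.8%. All 8 were called with no filter on the mean (12.1% of all genes), at a mean of at least 50 (16.3%) and with the median of all tested genes set to 0 (15.0%). These settings were mild: that median was -0.0053, and NPTXR, with the highest adjusted p of the 8, ran only from 0.0298 to 0.0373. A mean of at least 1000 left LGI1, NPTXR and PTPRN2, and all 3 were called (16.1% of all genes).

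Centring ended the call of SCG2 or of NPTXR. With genes of like mean set to 0 (12.6% of all genes called), SCG2 missed the threshold narrowly (adjusted p of 0.0531; its settings ran from 0.000549 to 0.455). With the median of genes over 10000 set to 0, a shift of 0.12 that left 1849 genes higher and 361 lower (17.6% called), NPTXR stood at -0.27 (adjusted p of 0.171; its settings ran from 0.0298 to 0.686). The Wald scores of the table had a central spread of 1.69, against 1 for a standard normal score, and the reason was not tested. Dividing the scores by it left 2.48% of all genes called. This keeps the order of the scores, so the genes still called had to be those with the lowest deposited p-values. Only CALB2 (adjusted p of 0.00219) and NXPH2 (adjusted p of 0.0202) of the 8 were still called then, while PCSK1 (0.0611), PTPRN2 (0.0786), UNC13B (0.113), LGI1 (0.404), SCG2 (0.455) and NPTXR (0.686) had higher adjusted p-values.

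**Figure D3:**
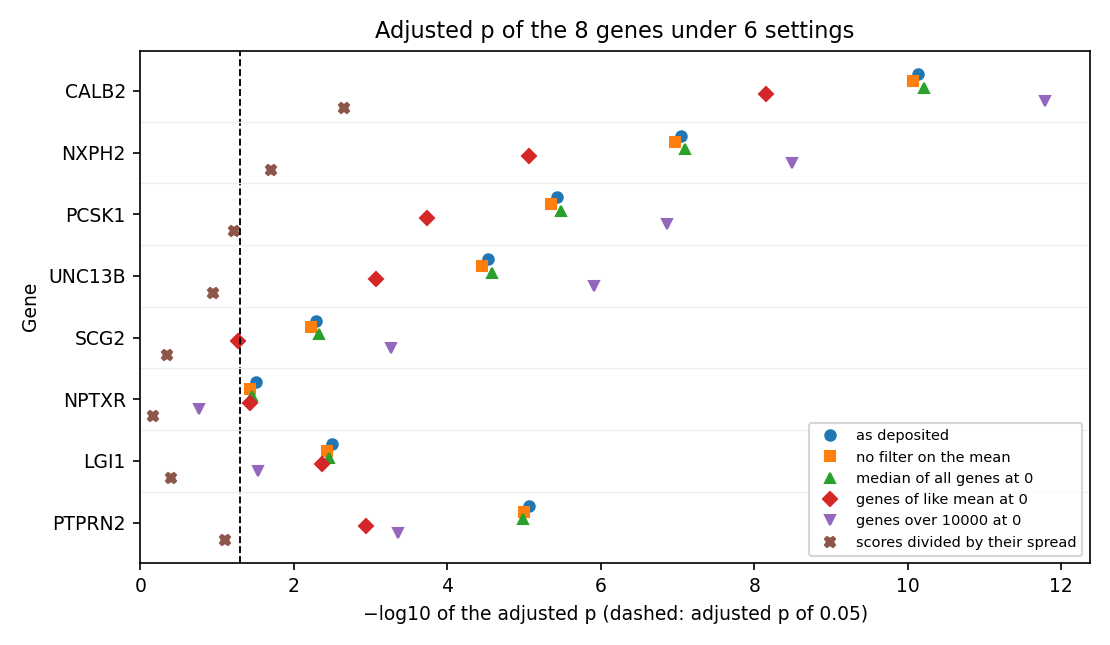
Adjusted p-values of the 8 genes as −log10 (x axis) under 6 settings, with the dashed line at an adjusted p of 0.05. Circles are the values of the authors' deposited table and the other markers are recomputed from its fold changes, errors and scores. CALB2 and NXPH2 lie right of the line under all 6, and the crosses, for scores divided by their spread, lie left of it for the other 6 genes.

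The wider set of neurosecretory and synaptic genes was described from 7 lists of 486 symbols, chosen with earlier results of these data known. Of these symbols 44 were found. Only 8.37% of all genes carry a symbol, so a list gene that was not found may still have been measured. Of the 36 that were tested, 12 were called higher and 3 lower, a count that includes the 8 genes chosen for their calls. The background was 8.72% higher and 6.49% lower over all tested genes, and 127 of 1157 higher and 79 (6.83%) lower over tested genes with a symbol, as every list gene has. The median log2 fold change of the 36 was 0.20, or 0.11 with genes of like mean set to 0, against 0.035 over tested genes with a symbol and -0.0053 over all tested genes. With the 8 genes left out, 28 remained, of which 7 (25.0%) were called higher and 0 lower by the authors' Wald test as deposited (9 higher and 1 lower at an unadjusted p under 0.05). The 3 list genes called lower were all among the 8, so the 0 follows from how the 8 were chosen. The 28 genes had a median mean of 486 normalised counts, in the band where 16.2% of all tested genes were called higher. Of the 7 called, only SVOP and S100B had means in that band. The median log2 fold change of the 28 was 0.17, or 0.077 with genes of like mean set to 0. Of these 7, only SNCAIP was still called with the scores divided by their spread.

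In the list of dense-core vesicle and peptide processing genes 2 of the 4 tested beside SCG2, PCSK1 and PTPRN2 were called higher. At means of 100 to 1000, where the median of these 4 lay (693), 16.2% of all tested genes were called higher. SVOP lay in that band (mean 588), but CPE lay at 1000 to 10000, where 510 of 6121 tested genes were called higher. Of the 2, SVOP is known from synaptic vesicles. CPE, the carboxypeptidase that trims basic residues after a convertase has cut, rose by 0.68 ± 0.15 on the log2 scale per the authors' deposited table (adjusted p of 0.000165, mean 2554). SVOP, a transporter-like protein, rose by 0.96 ± 0.19 per the authors' deposited table (adjusted p of 8.89e-06). SYTL3, a synaptotagmin-like protein, stood at -0.14 ± 0.25 per the authors' deposited table. The convertase gene PCSK4 was at 0.065 ± 0.26 and a mean of 43.9 per the authors' deposited table. Of the 54 symbols of the neuropeptide list only 3 were found, and the others, measured or not, could not be read. CARTPT was listed at 0 and ADCYAP1 lay under the authors' filter at a mean of 10.98. The endothelin gene EDN3 stood at -0.00076 ± 0.14 per the authors' deposited table.

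Of the 8 vesicle priming, docking and fusion genes tested beside UNC13B, 2 were called higher, both tied to synucleins. At means of 100 to 1000, where the median of these list genes lay (211), 16.2% of all tested genes were called higher. Neither called gene lay in that band. From 1000 to 10000, which holds SNCAIP (mean 2792), 510 of 6121 tested genes were called higher, and SNCG lay under 100. SNCAIP, which encodes the synuclein-binding protein synphilin, rose by 0.82 ± 0.14 per the authors' deposited table (adjusted p of 2.07e-07), and SNCG, gamma-synuclein, by 1.04 ± 0.26 at a low mean of 45.4 (adjusted p of 0.00114). By the authors' deposited table SYT12 stood at 0.52 ± 0.20 (adjusted p of 0.0600, and 0.0120 with genes over 10000 set to 0), SYN2 at 0.39 ± 0.23, SYN3 at -0.19 ± 0.25 and RAB3C at -0.31 ± 0.27. SYT12 belongs to the synaptotagmins, SYN2 and SYN3 to the synapsins that tether vesicles, and RAB3C to the vesicle GTPases.

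Of the 8 further synapse organisers 2 were called higher. Their median mean (790) lay in the same band of 100 to 1000, where the share called higher was 16.2% of all tested genes. Both called genes lay above that band, at means of 1000 to 10000, where 510 of 6121 tested genes were called higher. FLRT3, a leucine-rich membrane protein that binds latrophilins, rose by 0.57 ± 0.12 (adjusted p of 5.56e-05, mean 6253) and the secreted olfactomedin OLFM3 by 0.82 ± 0.17 (adjusted p of 6.27e-05) per the authors' deposited table. LRRTM3, a neurexin-binding membrane protein, stood at -0.60 ± 0.24 per the authors' deposited table (adjusted p of 0.0704), and was called lower (-0.80, adjusted p of 0.0102) with genes of like mean set to 0. C1QL1 stood at 0.50 ± 0.25, CADM3 at 0.15 ± 0.16 and LRRTM4 at 0.23 ± 0.26 per the authors' deposited table. The neurexins, the neuroligins, other LGI genes and the soluble pentraxins were not analysed here, since none is paired with a symbol in the table.

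S100B was the only other EF-hand gene of 4 tested that was called, beside 15.2% of all tested genes. It stood at 0.92 ± 0.26 and a mean of 133 per the authors' deposited table (adjusted p of 0.00632). CIB2 stood at 0.19 ± 0.21, EFCAB7 at -0.069 ± 0.18 and KCNIP4 at 0.016 ± 0.18 per the authors' deposited table, and CABP4 and S100A4 lay under the filter. Of the postsynaptic list 0 of 3 tested genes passed by the authors' Wald test as deposited (also 0 at an unadjusted p under 0.05): GABRD was at 0.25 ± 0.25, GABRG3 at 0.0089 ± 0.22 and SHANK3 at -0.010 ± 0.15 per the authors' deposited table. GABRB1 and GRM2 lay under the filter, and 0 genes of transmitter synthesis and transport carry a symbol in the table.

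**Figure D4:**
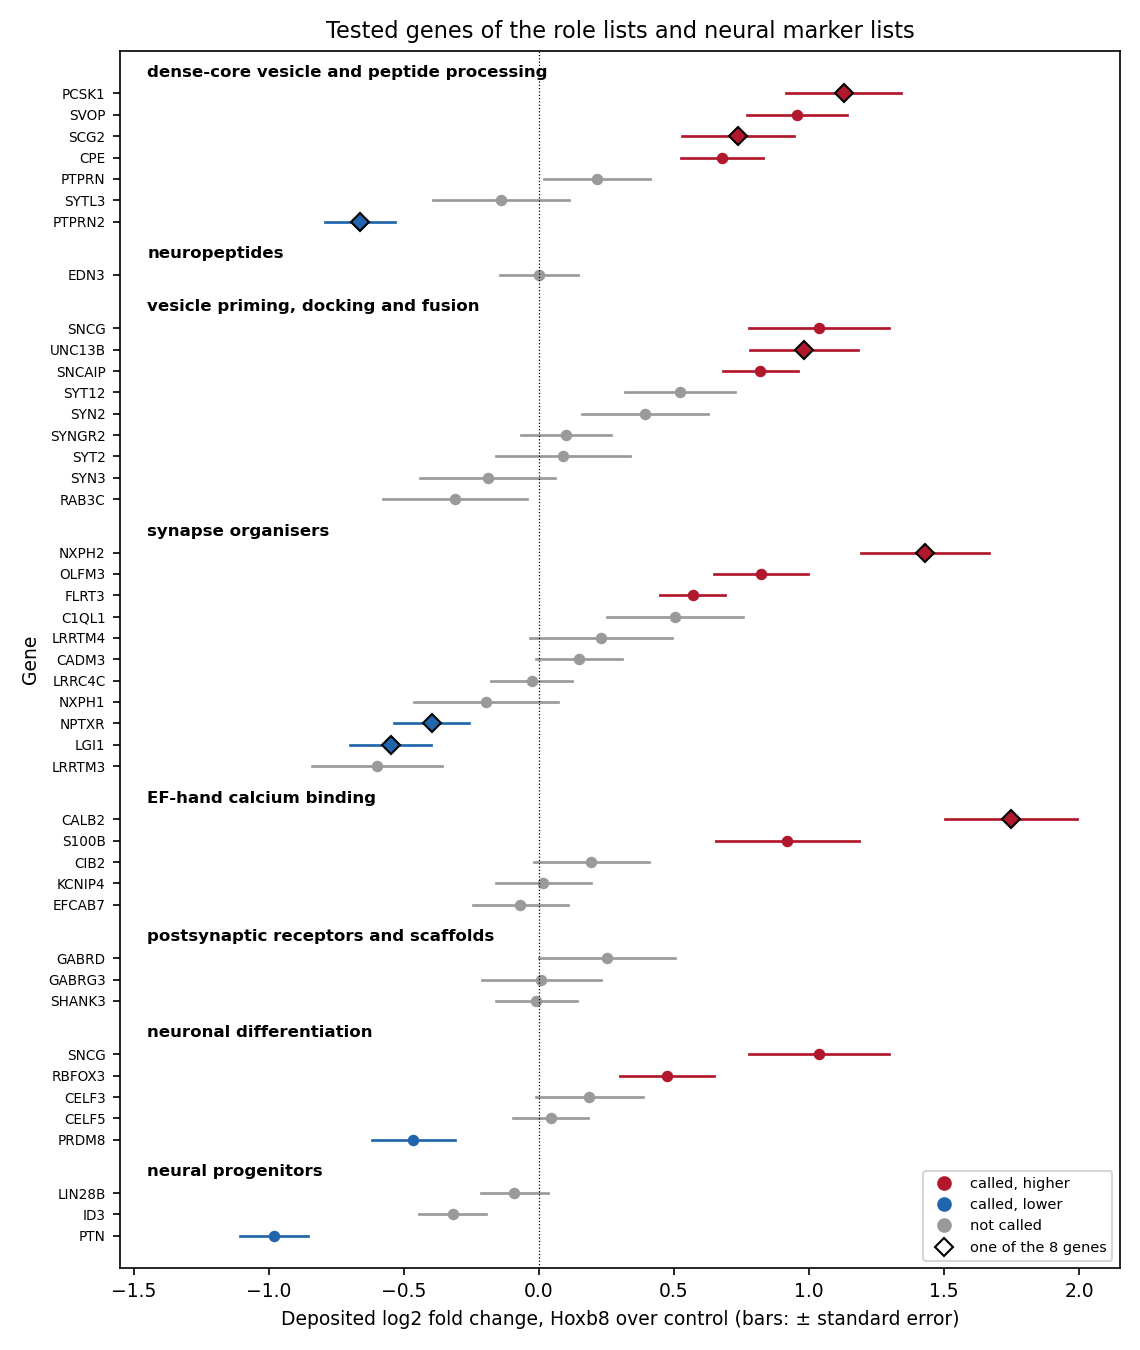
Log2 fold changes (x axis, Hoxb8 over control) with standard errors per the authors' deposited table for each tested gene of the role lists and of the neuronal and progenitor lists (rows). Red genes were called higher, blue lower and grey not called, and diamonds are the 8 genes. Of the 7 dense-core vesicle and peptide processing genes 5 lie right of 0, with PTPRN2 at the far left, while synapse organisers lie on both sides.

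Calls among markers of neuronal differentiation and of other cells went in both directions. Of 5 tested neuronal differentiation genes 2 were called higher and 1 lower, beside 8.72% higher and 6.49% lower over all tested genes. RBFOX3, the neuronal nuclear antigen NeuN, stood at 0.47 ± 0.17 (adjusted p of 0.0440), SNCG at 1.04 as above, and the repressor gene PRDM8 at -0.46 ± 0.16 (adjusted p of 0.0234) per the authors' deposited table. The call of RBFOX3 ended at an adjusted p under 0.01, with no filter on the mean and with genes of like mean set to 0, that of PRDM8 at an adjusted p under 0.01 and with genes over 10000 set to 0, and all 3 with the scores divided by their spread. CELF3 and CELF5, neuronal RNA-binding proteins, stood at 0.19 ± 0.20 and 0.043 ± 0.14 per the authors' deposited table, and NEUROD2 and NEUROD4 were listed at 0.

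Of the 43 symbols of the progenitor list only 3 were found, all of them tested and all with negative fold changes. Of these 3, 1 was called, PTN, lower at -0.98 ± 0.12 per the authors' deposited table. ID3 stood at -0.32 ± 0.12 (adjusted p of 0.0593, so called lower at under 0.1) and LIN28B at -0.091 ± 0.12. The background for this count and for those below was 15.2% of all tested genes called, and 17.8% of those with a symbol. Among markers of other tissues, the blood and endothelial gene LMO2, which spinal interneurons also use, was called higher at 1.48 ± 0.17 (adjusted p of 4.50e-16) and the endothelial gene PECAM1 at -0.028 ± 0.27 per the authors' deposited table. The 5 tested genes of the crest, mesoderm and surface ectoderm lists (RUNX3, UNCX, PRRX2, GRHL2 and DLX3) were not called and had means of at most 178 normalised counts, and KRT8 was listed at 0. These lists hold 23, 23 and 18 symbols, of which only 1, 2 and 3 were found. Of 4 stress genes BAG3 was called, higher at 0.93 ± 0.14 per the authors' deposited table, while SESN2 stood at -0.52 ± 0.20 (adjusted p of 0.0541), DNAJB9 at -0.23 ± 0.13 and ATF3 at -0.13 ± 0.19. With genes of like mean set to 0, SESN2 was called lower (-0.67, adjusted p of 0.00844). PTN, LMO2 and BAG3 were called under every setting, also with the scores divided by their spread (adjusted p of 0.000446 for PTN, 4.55e-05 for LMO2 and 0.00685 for BAG3), where 6 of the 8 genes were not. The part of these cells or of stress in the changes of the 8 genes was not tested.

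Genes most like each of the 8 were taken as those with a symbol, a mean within 2-fold and the nearest fold change, over this 1 comparison. By the authors' deposited table CALB2 (1.75) lay nearest to C11orf87 (1.66) and to NXPH2 (1.43), and NXPH2 nearest to C15orf59 (1.35) and FRMPD3 (1.33), all as log2 fold changes. PCSK1 (1.13) lay nearest to FAM124A (1.15) and CDX2 (1.17), UNC13B (0.98) to SUSD5 (0.97) and C1orf216 (0.99), and SCG2 (0.74) to TCTEX1D1 (0.71) and ARSB (0.77) per the authors' deposited table. Of the falling genes per the authors' deposited table, LGI1 (-0.55) lay nearest to COBLL1 (-0.52) and SLC41A3 (-0.50), NPTXR (-0.40) to RRN3 (-0.39) and FAM167A (-0.38), and PTPRN2 (-0.66) to GREB1L (-0.70) and C17orf75 (-0.60). FAM167A alone of these was not called (adjusted p of 0.0738). These were the nearest of 65 to 366 candidates for each gene, a choice that fixes the closeness. NXPH2 was still 0.32 from CALB2, where each has a standard error of 0.24, and the difference between them was not tested.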

How the data were processed

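Per the labels' protocols, cDNA made from the RNA of sorted cells went through linear amplification before libraries were built. The tools named by the submitters' processing notes are featureCounts, Subread, DESeq2 and DESeq, and the build is galGal4, with no roles or versions; filters and strand setting are not stated in the sources used here, so overlapping and antisense genes cannot be separated. The authors deposited 1 table of their comparison. Its signal is a mean of normalised counts over the 4 libraries, per the file headers. Its log2 fold changes and standard errors, per the file headers, have base 2 (log2). The authors' Wald score equals the fold change over its standard error, and the deposited p-values are its two-sided normal p-values, adjusted by the Benjamini-Hochberg method over 12574 genes (each checked on the table). Of the other genes, 2247 had a mean of 0 and 2287 a p-value but no adjusted p, at means up to 17.5.

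The main result is the set of deposited calls, at an adjusted p below 0.05. Alternatives were recomputed from the deposited values in Python 3.11.15 with numpy 2.4.6 and scipy 1.17.1: other thresholds and filters on the mean, 3 centrings of the fold changes, and scores divided by their central spread (the interquartile range over that of a standard normal). Like means are the 500 genes nearest in rank. These steps were tested on simulated data. The 95% intervals are normal ones from the deposited standard errors. Named genes are the 8, up to 6 genes with the lowest p per list, paralogues with a symbol, and the 2 nearest in fold change to each. The 8 genes and the lists were chosen with earlier results of these data known. Symbols come from the table, which gives 1432 of its genes (8.37%) one. No sequences were at hand, and none are shown.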

Additional observations from a re-analysis of the deposited data

How the results depend on the processing

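No paired analysis was possible because single libraries have no values in the file used. For the same reason leaving out single libraries, other size factors and other count models were not run. Under the 9 alternatives run, the 8 genes gave 67 values, of which 58 kept direction and call, 9 lost the call and 0 changed direction. No direction could change. Other thresholds, filters and score scales leave the fold changes as they are, and the centrings shifted each gene by less than its fold change. A threshold of 0.1 could not end a call either. Scores divided by their central spread, an alternative taken up with earlier results of these data known, left 2 of the 8 genes called, 312 of 1913 genes in all (237 higher and 75 lower) and 3 of the 15 called genes of the 7 lists (CALB2, NXPH2 and SNCAIP). A mean of at least 1000 left 3 of the 8 genes and 7 list genes called, since only 3 and 13 were then tested, and 560 genes higher and 748 lower in all. An adjusted p under 0.01 left 1184 genes in all. With genes over 10000 set to 0, 1849 genes were higher and 361 lower, against 1097 and 816 as deposited. Precision rests on 2 libraries per group, and the deposited standard errors of the 8 genes, 0.13 to 0.24, were wider at low means.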

Other observations

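The position of the 8 genes was looked up by name in the RefSeq gene table of a later assembly, GRCg7b, where each has 1 entry. There, 5 of the 8 overlap no other entry. LGI1 overlaps FRA10AC1, UNC13B overlaps an uncharacterised protein-coding entry, and PTPRN2 holds MIR153-2, a microRNA gene. Whether reads of these partners entered the counts was not tested. Of the protein-coding genes that flank the 8, 1 carries a symbol in the expression data: SLC35G1, beside LGI1, which stood at -0.48 ± 0.15 (adjusted p of 0.0124) and a mean of 2169 per the authors' deposited table, while LGI1 stood at -0.55 ± 0.15 and a mean of 2167. This pair was noticed after the values were seen, and no link between the genes was tested.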
